A study of Homo sapiens with 4 samples.

Results

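Long-range contacts of cohesin-bound chromatin were described in Kelly cells, an established human neuroblastoma line, here in a form that resists TAE684, an inhibitor of the kinase ALK. All cells were kept in TAE684 at 1 µM and were infected for 24 h, with polybrene, with short hairpins labelled shBORIS or the control shLUC. They were then selected with puromycin for 48 h. Contacts were measured by ChIA-PET of SMC1, a subunit of the cohesin ring: DNA fragments held by the precipitated protein were ligated to each other, and each ligated fragment was read from both ends as a paired-end tag (PET). There were 2 libraries per group, and the authors deposited 1 table for each group, which pools them. A long pair was defined as 2 anchors (intervals joined by PETs) on the same chromosome whose midpoints lay 500 kb to 2 Mb apart and which were joined by at least 4 PETs summed over both tables. This gave 593 long pairs out of 147452 intrachromosomal anchor pairs, and out of 14296 pairs of that span. Because the pairs were chosen by their summed PETs, those counts, and what follows from them, are a description without a test. The tables list joined anchors, so the word pair is used for them and not loop.

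Cohesin extrudes chromatin into loops, which are often held where CTCF is bound in convergent orientation at both feet. BORIS (CTCFL) is a germline paralog of CTCF that recognises much the same DNA motif and is silent in most adult tissues, while it is found in some tumours. Most cohesin loops are shorter than the contacts described here.

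The pooled tables held 434975 PETs for shLUC and 449979 for shBORIS, of which 146140 and 163041 joined anchors on the same chromosome. Ratios below are shBORIS over shLUC, each count divided by its table's intrachromosomal total, with exact 95% binomial intervals that cover counting error only. Neither table separates its libraries, so no replicate error could be had: every test compares 2 pools of libraries and not the conditions. Pairs and anchors are not replicates, and many share an anchor. Coordinates are on hg19, with the first base of a chromosome numbered 1. Genes at the anchors were not analysed here. Copy number and rearrangements of the line were not analysed either, so spans and counts by chromosome are those on the hg19 sequence.

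The long pairs carried 3733 PETs, 1822 in shLUC and 1911 in shBORIS. These were 18.5% of the 20145 PETs at 500 kb to 2 Mb and 1.21% of all intrachromosomal PETs. Most long pairs were thinly covered: 251 of them (42.3%) had exactly 4 PETs, the median was 5, 67 had 10 or more and 8 had 20 or more. Just outside the minimum, 532 pairs of the same span had 3 PETs.

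Long pairs clustered near the lower limit of the span. The median span was 651 kb (quartiles 555 and 854 kb), 503 pairs (84.8%) spanned less than 1 Mb, 90 spanned 1 Mb or more and 11 spanned 1.5 Mb or more. Counted against all anchor pairs that could be formed at the same distance, there were 24.6 long pairs per 10000 at 500 to 600 kb, 12.7 at 600 to 700 kb, 4.77 at 900 kb to 1 Mb and 0.284 at 1.5 to 2 Mb. At 100 to 500 kb, 148 per 10000 possible pairs reached 4 PETs, and at 2 to 10 Mb only 2 pairs did so. At the 500 kb limit the rule cut through a continuous distribution: within 10 kb of it, 32 pairs with at least 4 PETs lay inside and 30 outside. The best covered pair just inside joined chromosome 7 anchors 127348372-127349980 and 127847835-127850925 (9 PETs in shLUC, 7 in shBORIS, span 500.2 kb). Its counterpart just outside joined chromosome 2 anchors 30430697-30432296 and 30929053-30930956 (6 and 9 PETs, span 498.5 kb). Within 10 kb of 2 Mb no pair on either side had more than 2 PETs.

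**Figure D1:**
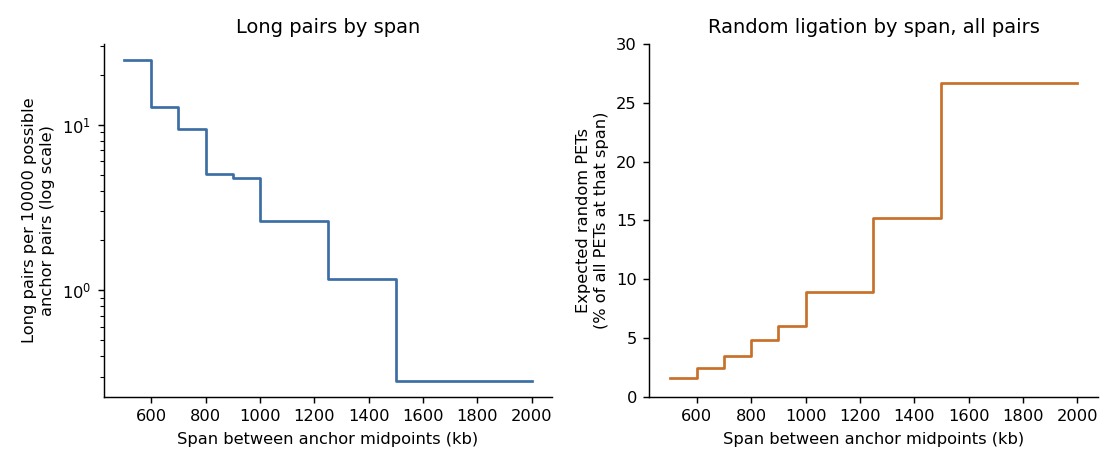
Long pairs per 10000 possible anchor pairs (left, log scale) and the PETs expected from random ligation as a percentage of all PETs (right, all pairs), both against the span between anchor midpoints in kb. The rate of long pairs falls from 24.6 to 0.284 per 10000, while the expected random share rises from 1.59% to 26.7%.

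The strongest long pair lay on chromosome 1, between anchors 210756926-210759635 and 211305776-211309670, 549 kb apart, with 27 PETs in shLUC and 39 in shBORIS. It was followed by a chromosome 20 pair (56167830-56173942 and 56783748-56786294, 614 kb) with 20 and 25 PETs. A chromosome 12 pair (103342065-103345193 and 103940609-103943563, 598 kb) had 18 and 13 PETs. Each of these had more than 10 PETs in both pools. On chromosome 11, anchors 68868168-68871370 and 69452787-69460349 (587 kb) shared 13 and 15 PETs. On chromosome 12, anchors 93962738-93967760 and 94492847-94496992 (530 kb) shared 11 and 12. On chromosome 2, anchors 16953671-16957620 and 17490118-17492051 (535 kb) shared 10 and 11. The 20 strongest pairs had 16 to 66 summed PETs and lay on 10 chromosomes, and 16 of them spanned less than 700 kb. Of these 20, 11 had more PETs in shBORIS, 5 had more in shLUC and 4 had equal counts, and their ratios ran from 0.398 to 1.49. The interval left out 1 for a single pair of the 20, described below. One pair of the 20 spanned over 1 Mb: chromosome 3 anchors 187455329-187460714 and 188671682-188673241 (1214 kb), with 8 PETs in shLUC and 9 in shBORIS.

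**Figure D2:**
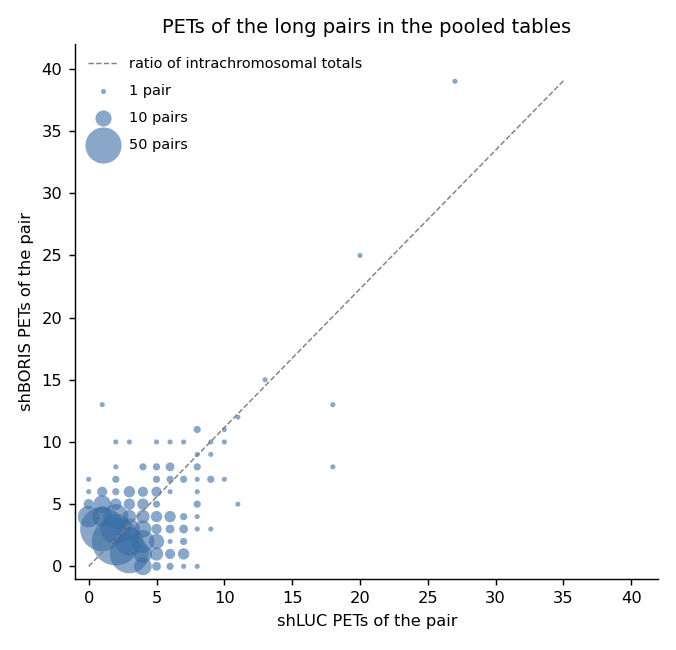
PETs of each long pair in the pooled shLUC table (x axis) and the pooled shBORIS table (y axis); the area of a point is the number of pairs at that position, and the dashed line is the ratio of the intrachromosomal totals. Most pairs sit in the lower left corner at a summed count of 4 to 10, and the chromosome 1 pair with 27 and 39 PETs lies farthest out.

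The longest pair with at least 6 PETs joined chromosome 15 anchors 20561089-20563904 and 22510621-22511718, 1949 kb apart, with 2 PETs in shLUC and 6 in shBORIS. It crossed only 4 other anchors, against 32.3 at the mean anchor density of its chromosome, and 1363 kb of the interval held no anchor. Whether reads could be placed in that stretch was not tested. The next was on chromosome 2 (44270627-44272360 and 45721314-45722676, 1451 kb), with 4 and 2 PETs. It crossed 26 anchors. Pairs followed on chromosome 3 (187455329-187460714 and 188865227-188866763, 1408 kb, 4 and 2 PETs), chromosome 10 (33618946-33620853 and 34925838-34928142, 1307 kb, 5 and 1 PETs) and chromosome 18 (7220960-7222456 and 8478015-8481494, 1258 kb, 3 and 3 PETs). All of these had fewer than 10 PETs and did not enter the test described below.

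Random ligation was gauged from PETs between chromosomes, which were taken to join fragments that were not held together. The expected number for a pair was taken as proportional to the product of its anchors' interchromosomal PETs, scaled so that the interchromosomal total was met. Over the long pairs, 3.27 PETs were expected and 3733 were observed. The ratio of observed to expected PETs of a pair had a median of 1988 and ranged from 97.8 to 44144. No long pair fell below 2 times its expectation, and 1 fell below 100 times. The minimum of 4 PETs fixes much of this, so it is a description only. Over all pairs of the span, whether or not they reached 4 PETs, 6.05% of PETs were expected from random ligation, against 0.396% at 100 to 500 kb and 78.5% at 2 to 10 Mb. The expected share was 1.59% at 500 to 600 kb and 26.7% at 1.5 to 2 Mb.

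The pools shared nearly all long pairs. PETs were present in both tables for 550 of the 593 (92.7%, exact 95% interval 90.4 to 94.7%), which was close to the 93.1% of pairs of 100 to 500 kb with at least 4 PETs. At the same count the shares were 88.0% against 84.8% at 4 PETs, 93.2% in both at 5, and 96.5% against 97.2% at 6 to 9. Long pairs seen in shLUC alone numbered 19 (3.20%), against 2.41% of all intrachromosomal pairs with at least 4 PETs, and 24 (4.05%) were seen in shBORIS alone, against 4.32%. The shares seen in a single table were not matched for count. No pair seen in a single table had more than 8 PETs. Since the summed minimum favours pairs present in both, pairs were also chosen in the shLUC table alone and looked up in shBORIS, which the choice did not use. Of 178 pairs with at least 4 PETs in shLUC, 159 (89.3%, interval 83.8 to 93.5%) had a PET in shBORIS, compared with 92.8% (91.7 to 93.9%) at 100 to 500 kb. At exactly 4 shLUC PETs the shares were 83.8% and 86.9%, and at exactly 5 they were 92.3% and 92.4%. The 178 pairs held 3.97 shBORIS PETs per pair, against 0.803 for the flanking pairs made by moving an anchor to its next neighbour. This was a 4.95-fold difference. Divided by the random expectation, which is lower for the flanking pairs, the difference was 1.58-fold. In the other direction, 161 of 185 pairs chosen in shBORIS (87.0%) had a PET in shLUC. At a single PET the spans separated more: 16.4% of long-span pairs with exactly 1 shLUC PET were seen in shBORIS, against 29.9% at 100 to 500 kb.

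Anchors of long pairs were wide and well covered. Their median width was 1629 bp (quartiles 1363 and 2249 bp), against 1172 bp for all 39507 anchors, 1562 bp for pairs of 100 to 500 kb with at least 4 PETs and 1369 bp for pairs of the same span below 4 PETs. The median anchor of a long pair had 56 interchromosomal PETs, against 22 for all anchors. For pairs with at least 4 PETs it was 52 at 100 to 500 kb and 50 at 20 to 100 kb. In these medians for pairs, an anchor counts once for each of its pairs. An anchor of 3 kb or more stood at either end of 24.5% of long pairs, 19.5% of the 100 to 500 kb pairs and 12.3% of the pairs below 4 PETs. Median width climbed with the count, from 1359 bp for pairs of this span with 1 PET to 1558 bp at 4 PETs and 3549 bp at 20 or more. Width and interchromosomal coverage moved together with the count, and their separate parts in it were not tested.

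Between their ends, long pairs crossed a median of 10 other anchors (quartiles 6 and 18, range 0 to 102). That was 1.42 anchors per 100 kb, against 1.66 for pairs of the span below 4 PETs, 2.09 for 100 to 500 kb pairs and 3.09 for all anchor pairs possible at the span. The median long pair thus crossed fewer anchors per distance than the median possible pair, as did the pairs below the minimum. Against the mean anchor density of its chromosome no such difference was seen: the median ratio of anchors crossed to the number at that density was 0.979, and 302 of 593 long pairs (50.9%) crossed fewer. Both references depend on how they were built. Possible pairs give more weight to stretches dense in anchors, where each anchor has more partners in range. The mean density was taken from the first to the last anchor of a chromosome, including stretches without anchors. There were 8 long pairs that crossed no anchor, 59 that crossed at most 2 and 128 that crossed more than 20. In 115 pairs a single anchor-free stretch took up most of the distance.

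Among pairs with at least 8 PETs, the fewest anchors crossed was 1, in 4 pairs on chromosomes 13, 15 and 5. The best covered of them joined chromosome 13 anchors 112126341-112127580 and 113097471-113099145 (971 kb), with 4 PETs in shLUC and 6 in shBORIS. The second chromosome 13 pair (76449941-76451572 and 77046784-77048577, 597 kb) had 7 and 2 PETs. The chromosome 15 pair (61486916-61488193 and 62125712-62128498, 640 kb) had 7 and 1, and the chromosome 5 pair (157601477-157603175 and 158121895-158123485, 520 kb) had 4 and 4. The next pair, on chromosome 14 (71605275-71606750 and 72219022-72220645, 614 kb), crossed 2 anchors and had 9 and 10 PETs. At the other end, 59 and 58 anchors were crossed by chromosome 20 pairs that share the anchor 47234964-47238504, and 58 by a chromosome 17 pair (70719270-70726789 and 71363831-71367169) with 3 and 5 PETs. A crossed anchor with at least 4 PETs to both ends, which would split the distance into shorter contacts, was found for 127 long pairs (21.4%). By contrast, 223 (37.6%) had more PETs than either of their ends had with any crossed anchor. That count includes the 8 long pairs that crossed no anchor, for which it holds by definition.

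Many long pairs had an anchor in common with another long pair. The 593 pairs used 961 distinct anchors, of which 792 served 1 long pair, 127 served 2, 31 served 3, 8 served 4 and 3 served 5. At least 1 anchor was shared with another long pair in 331 pairs (55.8%), against 77.0% at 100 to 500 kb, where pairs are also far denser. Long pairs carried a median of 26.9% of the intrachromosomal PETs of their anchors and over 50% for 120 anchors, and 426 anchors had no other pair of 4 or more PETs at any span.

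The anchor with the most PETs on long pairs was chromosome 1, 211305776-211309670. Its 4 long pairs all reached leftward, to 210580043-210581554 (10 PETs in shLUC, 10 in shBORIS), 210620912-210622789 (18 and 8), 210755731-210756360 (2 and 3) and 210756926-210759635 (27 and 39). They summed to 57 and 60 PETs, 63.2% of the anchor's intrachromosomal PETs. The partners thus lay in 3 places between 549 and 727 kb away, and the ratio of the sums was 0.944 (0.646 to 1.38).

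The chromosome 3 anchor 187455329-187460714 had 5 long pairs, all to the right and 1208 to 1408 kb away, with 24 PETs in shLUC and 22 in shBORIS. Of these, 3 ended within 188664584-188675518. Each of its 5 long pairs thus spanned over 1 Mb. The chromosome 2 anchor 12855103-12860675 had 5 partners to its left at 549 to 933 kb (17 and 21 PETs). The chromosome 20 anchor 37896693-37899079 had 5 to its right at 510 to 1694 kb (11 and 12 PETs).

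**Figure D3:**
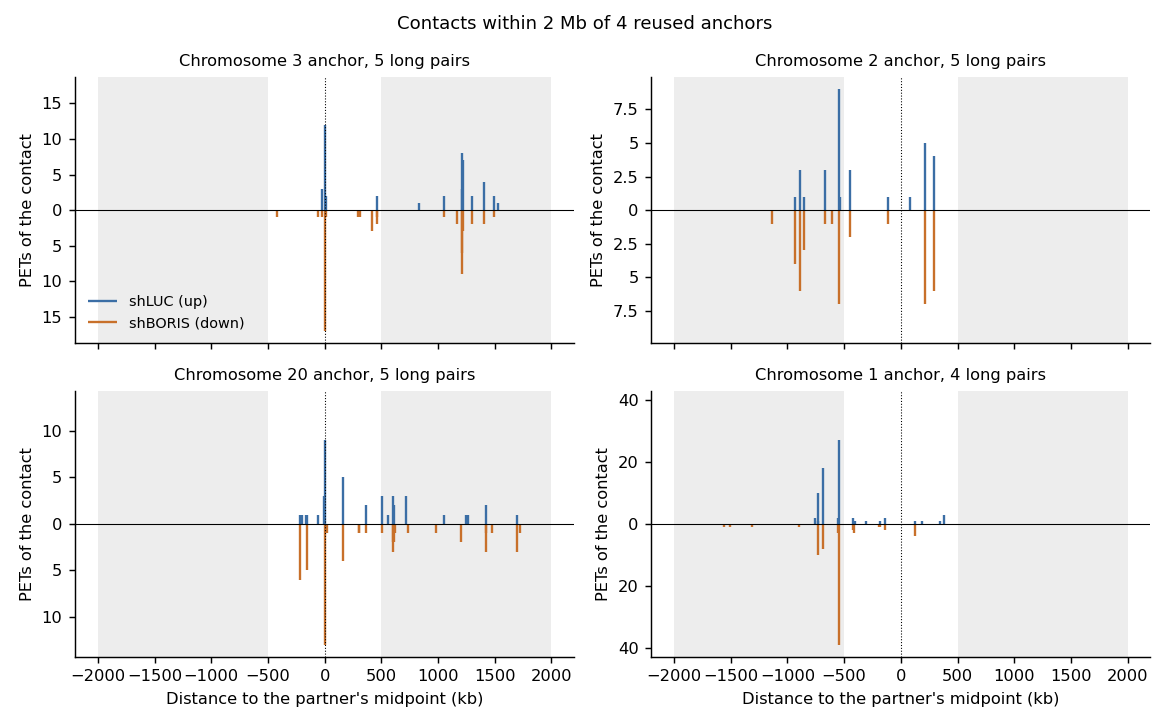
PETs of every contact within 2 Mb of 4 reused anchors, against the distance in kb to the partner's midpoint; shLUC is drawn upward, shBORIS downward, and grey marks 500 kb to 2 Mb. The long pairs lie on a single side of each anchor, to the right for chromosomes 3 and 20 and to the left for chromosomes 1 and 2.

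Neighbouring long pairs often ran in parallel. When pairs with both ends within 50 kb of each other were put together, 79 groups of 2 or more held 194 long pairs (32.7%). In the largest, on chromosome 20, all 6 combinations of 3 left anchors (within 56167830-56230916) and 2 right anchors (within 56753390-56786294) were long pairs, with 43 PETs in shLUC and 54 in shBORIS. On chromosome 7, all 6 combinations of 2 left anchors (within 36512497-36528287) and 3 right anchors (within 37220515-37242099) were long pairs, with 17 and 28 PETs. The ratio of that group was 1.48 (0.780 to 2.87), so the difference was within counting error. A chromosome 11 group (68868168-68926140 and 69452787-69499272) filled 5 of 9 combinations with 26 and 24 PETs.

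Nearly all reused anchors had their long partners in a single direction. Of the 169 anchors in 2 or more long pairs, 165 (97.6%, interval 94.1 to 99.4%) had all long partners on the same side, against 78.2% (76.4 to 79.8%) at 100 to 500 kb and 55.5% at 20 to 100 kb. All 11 anchors in 4 or more long pairs did so. With anchors in exactly 2 pairs the shares were 96.9%, 85.2% and 65.5%. These comparisons were chosen after the data were seen and have no test.

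The same side also held most of the shorter contacts of these anchors. At 20 to 500 kb, a range the rule did not use, the anchors of long pairs had 11010 PETs on the side of the long partner and 5402 on the opposite side (67.1%), with 68.2% in shLUC and 66.1% in shBORIS. Only 46.1% of the anchors in reach, and 43.4% of their interchromosomal coverage, lay on the side of the partner. More PETs pointed towards the long partner at 627 of 886 anchors, more pointed away at 216, and 43 were even. The lean grew with distance: 53.7% of PETs of 20 to 100 kb and 73.9% of PETs of 100 to 500 kb lay towards the long partner. A lean of this kind was also present at the anchors of 100 to 500 kb pairs, where 65.6% of PETs of 20 to 100 kb lay towards the partner, more at 57.6% of anchors. For long pairs the same range gave 53.7% of PETs and 55.5% of anchors.

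**Figure D4:**
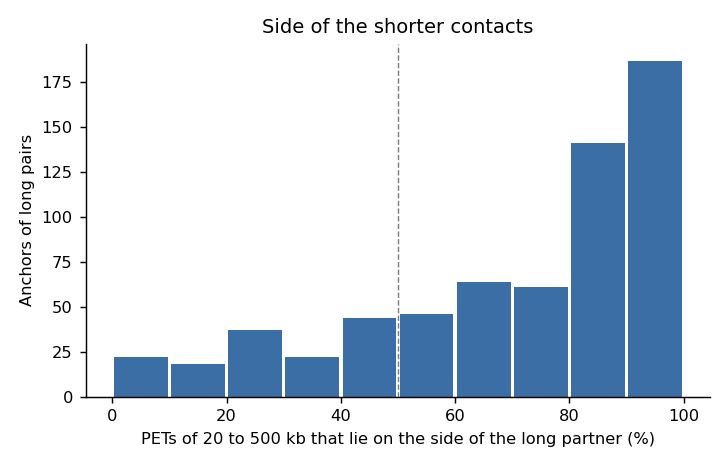
Histogram of 642 anchors of long pairs with at least 5 PETs of 20 to 500 kb, by the percentage of those PETs on the side of the long partner; the dashed line marks 50%. Values above 50% were found for 482 anchors and values below for 143, and 104 had all such PETs on the partner's side.

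Long pairs were found on 22 of the 23 chromosomes with anchors. Chromosome 2 had the most (66), followed by chromosomes 1 (59), 3 (58), 12 (54) and 7 (50). Per 100 pairs of 100 to 500 kb with at least 4 PETs there were 10.2 long pairs genome-wide, 18.9 on chromosome X (7 long pairs), 18.2 on chromosome 10, 15.02 on chromosome 6 and 14.3 on chromosome 2. The low end was made up of chromosomes 17 (5.99), 9 (3.96) and 16 (3.70). Chromosome 19 had none among 74045 possible anchor pairs of the span, which allows up to 0.405 per 10000, against 4.77 per 10000 genome-wide. The order depended on the denominator: per 1000 anchors, chromosome 20 was highest with 25.8 long pairs, chromosome 10 had 24.3, and chromosome X had 11.4, below the genome-wide 15.01. Chromosome 19 did have 129 pairs of 100 to 500 kb, and 256 PETs at the long span, of which 19.7% were expected from random ligation.

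**Figure D5:**
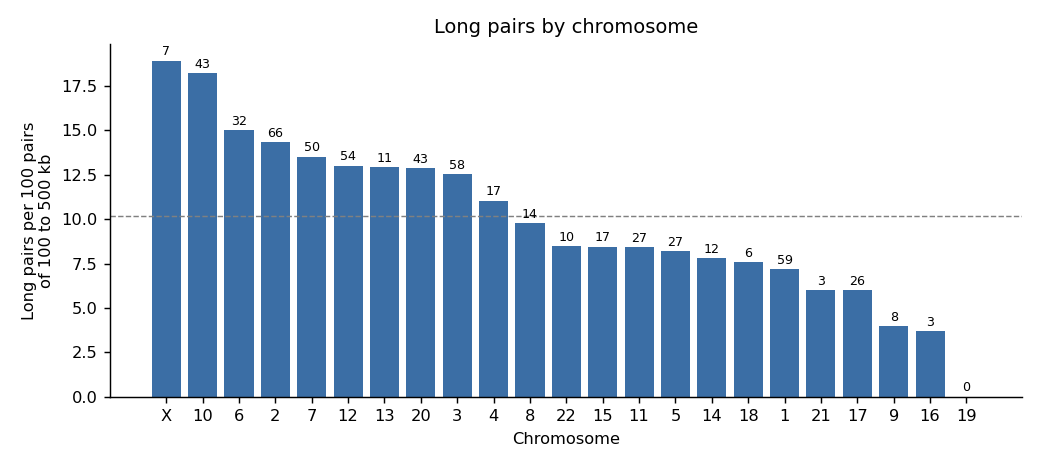
Long pairs per 100 pairs of 100 to 500 kb with at least 4 PETs, by chromosome; the number over each bar is its count of long pairs and the dashed line is the genome-wide value of 10.2. On this denominator chromosomes X and 10 stand highest, and chromosome 19 is at 0; per 1000 anchors chromosome X is below the genome-wide value.

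The comparison of shBORIS with shLUC found no long pair that differed past the threshold. Summed over the long pairs, the ratio was 0.940 (0.881 to 1.00), and it was 1.01 when counts were divided by all PETs of a table, so its direction depends on the scaling. Fisher's exact test (two-sided) was run on all 3951 intrachromosomal pairs with at least 10 PETs, with Benjamini-Hochberg adjustment over all of them. None of the 67 long pairs among them had an adjusted p under 0.05, against 2 of all pairs tested (0.0506%). Of these long pairs, 59 had only 10 to 19 PETs, where even large changes could be missed. A split of 1 and 13 PETs, described below, had an adjusted p of 0.404 by this exact test. Unadjusted p was under 0.05 for 3 long pairs of 67, 2 higher and 1 lower in shBORIS, against 5.69% of all pairs tested (3.06% higher, 2.63% lower).

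The smallest p belonged to chromosome 20 anchors 46305907-46308137 and 47234964-47238504, with 1 PET in shLUC and 13 in shBORIS. The ratio was 11.7 (1.75 to 495), and the adjusted p of Fisher's exact test with Benjamini-Hochberg adjustment was 0.404. Other long pairs of the right anchor did not share that direction: 46411685-46416296 had 11 and 5 PETs, 46291984-46293616 had 6 and 6, and 46482294-46484454 had 4 and 2. Over its 4 long pairs the anchor had 22 PETs in shLUC and 26 in shBORIS. The chromosome 1 pair with 18 and 8 PETs, named above, had a ratio of 0.398 (0.150 to 0.963) and an adjusted p of 0.747 by the same exact test. The chromosome 2 pair 27926022-27928579 and 28674324-28676319 had 2 and 10 PETs, with an adjusted p of 0.817 by that exact test.

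Summed over the long pairs of an anchor, the interval of the ratio left out 1 for 12 of the 169 reused anchors, without adjustment. It lay above 1 for 3 of them, where 1.82% of the reused anchors of 100 to 500 kb pairs did so, and below 1 for 9, where 2.63% did so. These anchors were picked for naming once their values had been seen. The 3 above 1, each in 2 long pairs, were chromosome 11, 94883948-94885618 (1 PET in shLUC, 12 in shBORIS), chromosome 2, 27926022-27928579 (2 and 14) and chromosome 20, 46305907-46308137 (3 and 15). Most of these PETs of the chromosome 2 and 20 anchors came from pairs named above, with 2 and 10 and with 1 and 13 PETs. The 2 below 1 that served 3 long pairs were chromosome 8, 93113061-93116818 (17 PETs in shLUC, 7 in shBORIS) and chromosome 12, 102333059-102334333 (11 and 2). Among the 22 chromosomes with long pairs, the interval left out 1 only for chromosome 4, again without adjustment (53 and 38 PETs, 0.643, 0.412 to 0.993).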

How the data were processed

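SMC1 ChIA-PET was measured in 4 libraries, 2 per group. The labels do not say whether these came from separate cultures, or whether the numbers in their titles mark replicates or different hairpins. Tools included cutadapt 1.8 and Bowtie, with the build hg19, per the submitters' processing notes. How anchor pairs were defined and scored is not given in the sources used here. Each group has 1 deposited table, with a PET count, a hypergeometric p-value and a Bayes probability (a fraction) for each anchor pair; the deposited p-value was not used. The shBORIS table lacks a header, and its columns were assigned by the header of the shLUC table.

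The tables were joined on anchor coordinates with Python 3.11.15 and pandas 2.3.3. Intervals, Fisher's exact test and Benjamini-Hochberg adjustment used SciPy 1.17.1. The test was checked on simulated data, with known changes put only on pairs of at least 20 PETs. Pairs of 10 to 19 PETs were given no such change, because even large changes are often not called at those counts. The members and lists were chosen with earlier results of these data known. Pairs were named by rule: the 20 with the most PETs, then 5 each of the longest with at least 6 PETs, those crossing fewest and most anchors with at least 8 PETs, and the smallest p. Alternatives changed the PET minimum, span, scaling, calibration, Bayes probability and test.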

Additional observations from a re-analysis of the deposited data

How the results depend on the processing

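No paired analysis was possible because both libraries of a group were pooled before deposit, and leaving out a library was not possible for the same reason. Of 36 alternatives over 11 results, 22 gave a value within the spread used to judge them, 14 moved and 0 were classed as reversed. A minimum of 3 PETs gave 1125 long pairs and one of 6 PETs gave 239; the share seen in both tables was then 83.4% and 97.5%, the share with a shared anchor 63.7% and 46.0%, and the share of reused anchors with partners on the same side 93.8% and 100%. At 6 PETs the observed over expected ratio was 1202 and the median anchor width 1779 bp; counting each anchor once gave 1566 bp. Calibration on pairs over 10 Mb apart gave an observed over expected ratio of 1068. Choosing at 3 PETs in shLUC gave 78.2% with a PET in shBORIS. Dividing by all PETs moved the shBORIS over shLUC ratio to 1.01. The cause of these shifts was not tested. The interval of the shBORIS over shLUC ratio left out 1 with PETs up to 2 Mb as totals (0.925, 0.867 to 0.986). It also did so at 6 PETs (0.906, 0.833 to 0.986) and over all pairs of the span (0.954, 0.928 to 0.981). So did the interval for pairs of 100 to 500 kb with at least 4 PETs (0.973, 0.955 to 0.991). Over all pairs of other spans the ratio was 1.03 at 20 to 100 kb, 0.981 at 100 to 500 kb, 0.909 at 2 to 10 Mb and 0.882 over 10 Mb. No long pair passed Fisher's exact test under any alternative. At an unadjusted p under 0.05 there were 29 of 593 at a minimum of 4 PETs, against 819 of all 17395 pairs tested. At 20 PETs there was 1 of 8, against 63 of all 890. With all PETs as totals there were 3 of 67, against 225 of all 3951. A negative binomial dispersion of 0.1 gave 1 of 67, against 60 of all 3951. Depth limits single pairs: 251 rest on 4 PETs.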

Other observations

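The authors' deposited Bayes probability was at least 0.9 in both tables for 285 of the 593 long pairs, in at least 1 table for 578 and in neither for 15. Of the 8 long pairs that crossed no anchor, the best covered was the chromosome 5 pair 62696872 to 63258399 (first bases of its anchors; 3 PETs in shLUC, 3 in shBORIS), which was chosen after its values were seen. The 11 long pairs of 1.5 Mb or more crossed from 4 anchors on chromosome 15 to 102 on chromosome 17. PETs from either end to the crossed anchors were absent for 13 long pairs, of which 5 crossed at least 1 anchor.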
